A study of Mus musculus with 6 samples.

Results

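The genes of sphingolipid and ceramide metabolism were compared between the epididymal white adipose tissue (eWAT) of mice with cancer-associated cachexia (CAC) and that of control mice (CONT). The set was chosen by gene name and held 36 genes of the 55039 in the deposited count and FPKM tables: the enzymes that build ceramide, the enzymes that convert it or break it down, and the receptors of sphingosine-1-phosphate (S1P). Male C57BL/6 mice, aged 6 to 7 weeks when they were assigned to the groups, received a subcutaneous injection of Lewis lung carcinoma (LLC) cells in phosphate-buffered saline (CAC) or of phosphate-buffered saline alone (CONT). eWAT was taken 28 days later, and 1 RNA-seq library was made for each of 3 mice per group. The model rests on 1 transplanted tumor line of mouse lung carcinoma, and each library holds the RNA of whole fat tissue, in which fewer cells of a type and less RNA per cell cannot be told apart.

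Ceramide is the hub of sphingolipid metabolism. Serine palmitoyltransferase starts its synthesis in the endoplasmic reticulum by joining serine and palmitoyl-CoA, the ceramide synthases attach a second fatty acid of a length that depends on the isoform, and a desaturase completes the molecule. Ceramide is then turned into sphingomyelin, glucosylceramide or ceramide-1-phosphate, or is cut by ceramidases to sphingosine, which sphingosine kinases convert to S1P. S1P leaves the pathway irreversibly through S1P lyase, returns to sphingosine through S1P phosphatases, or acts outside the cell on G protein-coupled receptors. In adipose tissue, ceramides are known for their links to insulin signalling and to lipid storage.

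Total counts were 15713794 to 20638492 in the CONT libraries and 22829269 to 25926425 in the CAC libraries. The 10 adipocyte markers had a summed level of 22600 to 54700 CPM in CONT and 35700 to 47200 CPM in CAC, most of it from Fabp4 and Cfd. CPM values are counts per 1000000 reads of a library size adjusted by the trimmed mean of M-values (TMM), and 1 CPM stood for 11.2 to 26.5 reads. Some libraries stood apart from the rest of their group. The adipocyte gene Lep had 409 to 697 CPM in CONT and 512 CPM in CAC replicate 1, but 4 CPM in CAC replicate 2 and 0.415 CPM in CAC replicate 3. Fabp4 (13800 CPM against 3230 and 3750) and Plin1 (2230 CPM against 778 and 998) also set CAC replicate 1 apart from the other CAC libraries. In CONT replicate 1, mitochondrial genes took 30.2% of the counts, against 3.89% to 5.04% in the other 5 libraries. Markers of epididymis summed to 10300 CPM in CONT replicate 3 and to 174 CPM in CONT replicate 1, and those of testis to 1340 CPM in CONT replicate 2 and 1880 CPM in CAC replicate 3. Fold changes with each library left out are therefore given with the results.

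The promoters of 4 members are shown because the results turn on these genes: Acer2 and Sgpl1 had the largest positive fold changes, Ormdl3 was the most abundant member in FPKM, and S1pr3 had the largest negative fold change among the members whose libraries did not overlap. The sequences are the 250 bases before the RefSeq start on GRCm38.p6, 5′ to 3′ on the strand of the gene, and capitals mark matches to the motifs searched. The windows are chr4:86874164-86874413 (plus strand) for Acer2, chr10:61147685-61147934 (minus strand) for Sgpl1, chr11:98587246-98587495 (minus strand) for Ormdl3 and chr13:51408368-51408617 (plus strand) for S1pr3.
Acer2: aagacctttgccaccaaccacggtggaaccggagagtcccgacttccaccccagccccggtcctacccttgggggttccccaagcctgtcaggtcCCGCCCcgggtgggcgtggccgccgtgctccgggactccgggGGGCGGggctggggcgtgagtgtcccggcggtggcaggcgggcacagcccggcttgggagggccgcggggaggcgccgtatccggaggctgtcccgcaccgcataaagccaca
Sgpl1: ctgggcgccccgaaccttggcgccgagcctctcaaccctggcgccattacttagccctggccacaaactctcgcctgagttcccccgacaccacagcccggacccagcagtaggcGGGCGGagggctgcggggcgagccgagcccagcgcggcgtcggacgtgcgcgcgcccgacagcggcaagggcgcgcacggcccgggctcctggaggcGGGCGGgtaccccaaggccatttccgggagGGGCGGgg
Ormdl3: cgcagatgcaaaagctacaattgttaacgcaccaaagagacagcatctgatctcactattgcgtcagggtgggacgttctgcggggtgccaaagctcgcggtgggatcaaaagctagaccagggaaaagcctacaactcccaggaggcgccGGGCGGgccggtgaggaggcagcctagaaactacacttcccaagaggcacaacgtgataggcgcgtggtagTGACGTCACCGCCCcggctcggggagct
S1pr3: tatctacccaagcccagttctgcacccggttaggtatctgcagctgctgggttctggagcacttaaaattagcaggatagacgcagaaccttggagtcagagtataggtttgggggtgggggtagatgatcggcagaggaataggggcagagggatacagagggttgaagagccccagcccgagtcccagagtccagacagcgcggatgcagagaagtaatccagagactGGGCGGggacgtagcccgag
All 4 windows held the GC box GGGCGG on one strand or the other, and Ormdl3 also held the cAMP response element TGACGTCA. Counted back from the RefSeq start, the GC box began at -155 (as its reverse complement) and -113 in Acer2, at -135, -38 and -8 in Sgpl1, at -99 and, as its reverse complement, -20 in Ormdl3, and at -20 in S1pr3. No match overlapped another. The deposited gene model of Ormdl3 starts 123 bases before the RefSeq start, so that its 3 matches lay inside the deposited gene. That of Sgpl1 starts 19 bases before the RefSeq start, so that its match at -8 did too, and the starts of Acer2 and S1pr3 differed by 18 and 21 bases.

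A promoter was listed for 33 of the 36 members, all but Asah1, Smpd3 and S1pr1. GGGCGG was found in 21 of the 33 (63.6%), against 32.7% of the 32851 promoters of the same length in the reference. CCAAT was found in 10 (30.3%, against 33.8%), the E-box CACGTG in 5 (15.2%, against 6.02%), TATAAA in Sphk1 alone (3.03%, against 12.4%) and TGACGTCA in Ormdl3 and S1pr2 (6.06%, against 1.55%). Both strands were searched, and the 5 motifs were chosen after the expression values were known. The shares of the members count genes, whereas the reference shares count every promoter listed, whether or not its gene was tested for expression. The members and the reference were therefore not matched. Whether the members differ from other genes expressed in eWAT was not tested. These shares describe letters in a window and not the binding of a factor.

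**Figure D1:**
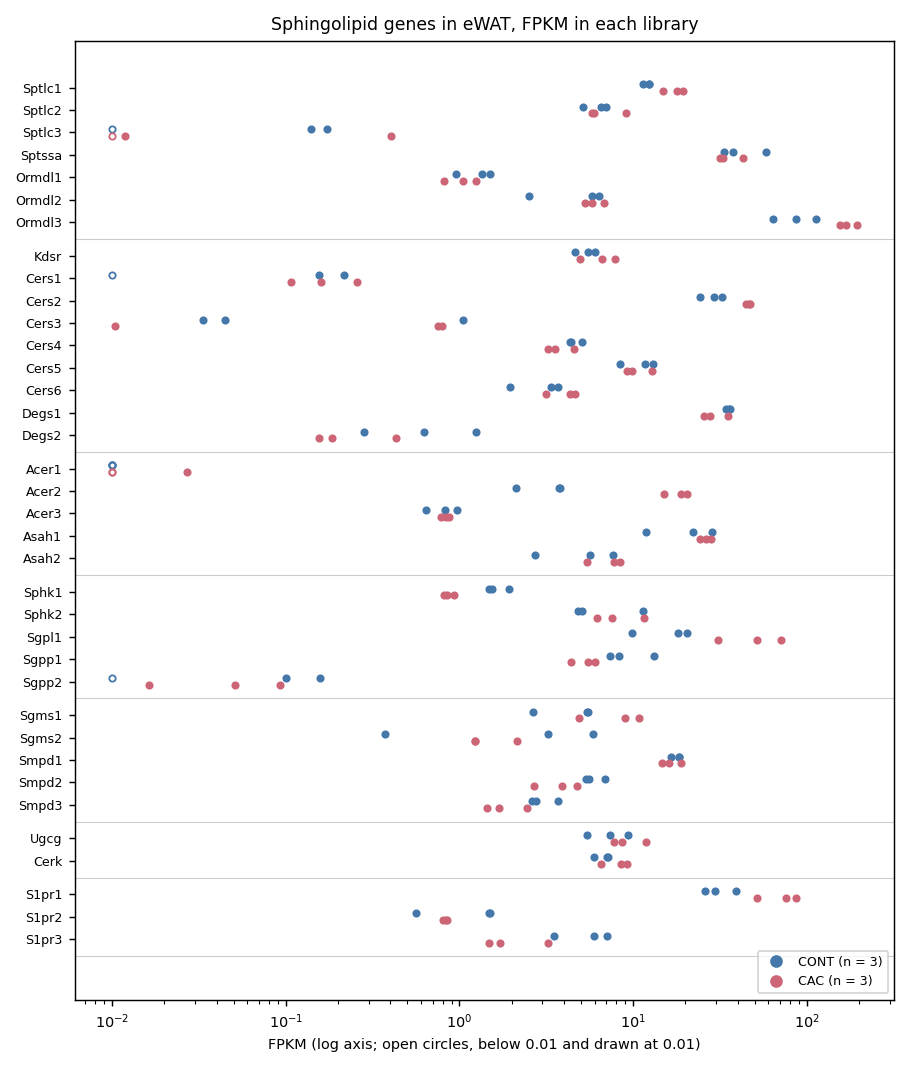
FPKM of the 36 members (log axis) in each of the 3 CONT and 3 CAC libraries, 1 point per library, grouped by role in the order of the text. Ormdl3, S1pr1, Sgpl1 and Cers2 lie at the upper end in CAC, and Acer1, Sptlc3, Sgpp2, Cers1 and Cers3 lie at the lower end in both groups.

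Most of the pathway was expressed in eWAT. The mean FPKM, which is per kilobase of gene length and so allows levels to be compared between genes, was at least 1 over the 6 libraries in 29 members and below 1 in the other 7. The 4 most abundant members in CAC were Ormdl3 (172.7 FPKM), S1pr1 (71.5), Sgpl1 (51.3) and Cers2 (46.1), as the plot of FPKM by library shows. The same 4 genes had 87.6, 31.5, 16.2 and 28.6 FPKM in CONT, where Sptssa (43.1) and Degs1 (35.2) also ranked high.

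Of the 36 members, 35 passed the filter on low counts and were tested among 17296 genes with edgeR's quasi-likelihood test. None had an adjusted p under 0.05, nor did any other gene of the table (0% of those tested), and the lowest adjusted p in the table, 0.127, was also that of Acer2. At an unadjusted p under 0.05 there were 11 members (31.4% of those tested, against 13.3% of all genes), 6 higher in CAC (17.1%, against 6.31%) and 5 lower (14.3%, against 6.95%). The same 11 members were those whose libraries did not overlap, meaning that every CAC library lay on one side of every CONT library. Of all genes tested, 22.5% had libraries that did not overlap, 11.8% higher in CAC and 10.7% lower. Adjusted p-values of the 11 ran from 0.127 to 0.356, so that none of these differences passed the test over all genes.

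The 6 members that were higher in CAC were Acer2, Sgpl1, S1pr1, Ormdl3, Cers2 and Sptlc1, and the 5 that were lower were S1pr3, Sphk1, Sgpp1, Smpd3 and Smpd2. With DESeq2, the tool of the study, 6 of the 33 members with an adjusted p passed at 0.05 (18.2%, against 5.55% of all genes with one). They were Acer2, Sgpl1, S1pr1, Ormdl3 and Cers2, all higher in CAC, and Sphk1, which was lower. Leaving out CAC replicate 3 left 1 such member and leaving out CONT replicate 2 left 2, while there were 10 in the absence of CONT replicate 1. The shares of all genes with an adjusted p under 0.05 in these 3 fits were 3.32%, 3.36% and 11.3%. In the 6 fits with a library left out, Acer2 passed in all 6, Sgpl1, S1pr1 and Sphk1 in 4 each, and Ormdl3 and Cers2 in 3 each. In edgeR, the 11 members at an unadjusted p under 0.05 became 7 without CONT replicate 2 and 7 without CAC replicate 3, where 9.3% and 8.32% of all genes were under it. Among the 5 lower members, 2 were left without CONT replicate 2, CONT replicate 3 or CAC replicate 3, and 3 without CAC replicate 2. Over the 35 members tested, 20 fold changes were above 0 and 15 below, with a median log2 fold change of 0.24, against -0.06 for all genes tested, and this median was -0.06 without CONT replicate 1.

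**Figure D2:**
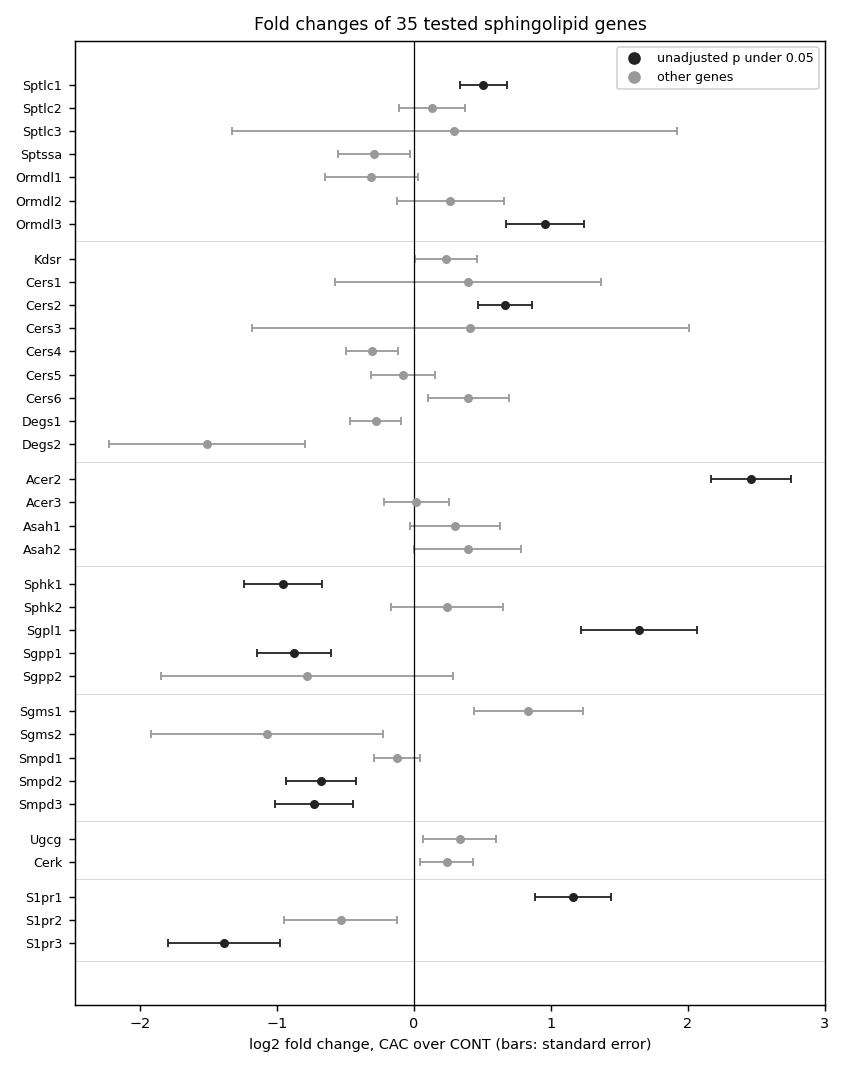
Fold changes (log2, CAC over CONT, edgeR) of the 35 tested members, with bars for the standard error, grouped by role, and dark points for an unadjusted p under 0.05. Acer2 stands at 2.46 and S1pr3 at -1.39, and Sptlc3 and Cers3, with few reads, have standard errors of about 1.6.

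The first step of the pathway is carried out by serine palmitoyltransferase, whose core is formed by the products of Sptlc1 with Sptlc2 or Sptlc3, with Sptssa as the small activating subunit. The ORMDL proteins hold this enzyme back when ceramide is plentiful. In these 7 genes, 2 were higher in CAC at an unadjusted p under 0.05 (Sptlc1 and Ormdl3; 28.6%, against 6.31% of all genes) and none was lower. Ormdl3 (chr11:98581256-98587368) had 171, 237 and 306 CPM in the CONT libraries and 413, 525 and 449 CPM in the CAC libraries. The lowest CAC library was thus above the highest CONT library, and the log2 fold change was 0.96 (SE 0.28; 1.94-fold; edgeR adjusted p = 0.281). Sptlc1 (chr13:53332748-53377397) differed less, with 49.8, 54.9 and 54.8 CPM in CONT and 64.4, 77.9 and 84.4 CPM in CAC. Its log2 fold change was 0.51 (SE 0.17; edgeR adjusted p = 0.311). The unadjusted p was no longer under 0.05 without CONT replicate 2, CAC replicate 2 or CAC replicate 3, where the fold changes were 0.54, 0.50 and 0.43, and the highest value was 0.66 without CAC replicate 1.

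The partner subunits did not separate the groups. Sptssa had 109, 63.3 and 71.3 CPM in CONT and 57.9, 61.7 and 79.6 CPM in CAC, and the high CONT value was that of replicate 1. Sptlc2 averaged 62.8 ± 10.2 CPM in CONT and 68.8 ± 17.7 CPM in CAC (SD, n = 3 each), and Sptlc3 had no more than 35 reads in any library. The 2 other ORMDL genes were low beside Ormdl3, with mean levels over all libraries of 6.70 CPM (Ormdl1) and 11.2 CPM (Ormdl2), and their libraries overlapped. Most exonic bases of Ormdl2 (66.7%) are shared with Dnajc14 on the other strand, and since the strand setting of the counting is not given in the sources used here, its reads are uncertain.

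The 9 genes of the ketoreductase, the ceramide synthases and the desaturases held 1 member with libraries that did not overlap (11.1%, against 22.5% of all genes), Cers2, the ceramide synthase for very long acyl chains. Cers2 (chr3:95314791-95323599) had 110, 134 and 148 CPM in CONT and 200, 214 and 209 CPM in CAC. The CAC libraries were close to one another, with a mean of 207.4 ± 7.12 CPM against 130.8 ± 19.1 CPM in CONT (SD, n = 3 each), and the log2 fold change was 0.66 (SE 0.19; 1.58-fold; edgeR adjusted p = 0.279). Setdb1, on the other strand, shares 2.04% of its exonic bases.

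None of the other ceramide synthases differed in this way. Cers5 had 36.8, 52.1 and 57.5 CPM in CONT and 55.5, 40.1 and 42.9 CPM in CAC. Cers6, which prefers palmitoyl-CoA, averaged 33.1 ± 10.3 CPM in CONT and 43.7 ± 8.73 CPM in CAC, and Cers4 averaged 70.1 ± 5.80 and 56.7 ± 10.03 CPM (SD, n = 3 each). Cers1, a form of brain and muscle, and Cers3, the form of skin and testis, had few reads. Cers1 had at most 25 in a library. It shares 42.5% of its exonic bases with Gdf1 on the same strand and 2.14% with Upf1 on the other, so its level is uncertain. Cers3 was uneven, with 98 reads in CONT replicate 2, 75 in CAC replicate 2, 84 in CAC replicate 3 and at most 3 in the others. CONT replicate 2 and CAC replicate 3 were also the libraries with testis markers, whose part in the Cers3 reads was not tested.

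Degs1, the dihydroceramide desaturase, had 113, 117 and 110 CPM in CONT and 111, 81.9 and 87.6 CPM in CAC, with CAC replicate 1 inside the CONT range. Its relative Degs2, which also makes phytoceramide, was low at 0.89, 2.01 and 4.02 CPM in CONT and 0.57, 1.37 and 0.49 CPM in CAC. The log2 fold change of Degs2 was -1.51 (SE 0.72; edgeR adjusted p = 0.418) and -0.83 without CONT replicate 3, the library with the highest level of epididymis markers, and reached -1.88 without CONT replicate 1 and -2.10 without CAC replicate 2. Its exons overlap those of Evl on the other strand, a gene with more reads, so that this low level is uncertain. Kdsr, which reduces 3-ketosphinganine, averaged 54.5 ± 7.63 CPM in CONT and 64.2 ± 14.2 CPM in CAC (SD, n = 3 each).

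The ceramidases held the largest fold change of all members, that of Acer2, the alkaline ceramidase of the Golgi. Acer2 (chr4:86874396-86934822) had 18.7, 34.1 and 33.4 CPM in the CONT libraries and 164, 133 and 179 CPM in the CAC libraries. Every CAC library was thus far above every CONT library, and the means were 28.8 ± 8.69 and 158.8 ± 23.3 CPM (SD, n = 3 each). The log2 fold change was 2.46 (SE 0.29), a 5.51-fold higher level in CAC (edgeR adjusted p = 0.127). It lay between 2.25 and 2.61 with any 1 library left out, the unadjusted edgeR p was under 0.05 in each of these fits, and the DESeq2 adjusted p was 8.18e-13 with all 6 libraries. Markers of neutrophils also differed between the groups, at 5.17 to 58 CPM in CONT and 173 to 1140 CPM in CAC in sum, and their part in the level of Acer2 or of any other member was not tested.

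Asah1, the acid ceramidase of the lysosome, had 49.4, 94.2 and 121 CPM in CONT and 107.9, 101.2 and 117.2 CPM in CAC. The CONT libraries spread widely and enclosed the CAC values, and the low one was replicate 1. Asah2, the neutral ceramidase, had 15.8, 33.3 and 44.7 CPM in CONT and 47.5, 44.7 and 31.1 CPM in CAC, with overlap. Acer3 had nearly equal means, at 15.4 ± 3.24 CPM in CONT and 15.6 ± 0.70 CPM in CAC (SD, n = 3 each). Acer1, the alkaline ceramidase of the epidermis, was not tested: 2 reads were counted in CAC replicate 2 and 0 in the other 5 libraries, where a count of 0 allows up to 0.268 CPM in the shallowest library.

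In the 5 genes that make and remove S1P, the lyase was higher in CAC at an unadjusted p under 0.05 (20%, against 6.31% of all genes). A kinase and a phosphatase were lower (40%, against 6.95%), and none had an edgeR adjusted p under 0.05. Sgpl1 (chr10:61098642-61147703), which cleaves S1P irreversibly, had 74.4, 140 and 157 CPM in CONT and 230, 540 and 390 CPM in CAC. The groups did not overlap, but the CAC libraries differed by more than 2-fold among themselves. The log2 fold change was 1.64 (SE 0.42; 3.12-fold; edgeR adjusted p = 0.259), and it was 1.33 without CAC replicate 2 and 1.97 without CAC replicate 1. The unadjusted edgeR p of Sgpl1 was under 0.05 in all 6 fits with 1 library left out.

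Sphk1 (chr11:116530925-116536674), the inducible sphingosine kinase, had 9.10, 11.6 and 8.81 CPM in CONT and 4.93, 5.49 and 4.80 CPM in CAC. Both groups were tight, and the log2 fold change was -0.96 (SE 0.28; edgeR adjusted p = 0.283). Without CONT replicate 2 the fold change was -0.82 and the unadjusted p was no longer under 0.05. Sphk2, the more abundant kinase, overlapped between the groups at 58.4, 25.0 and 26.1 CPM in CONT and 31.4, 38.9 and 58.9 CPM in CAC. Its exons are shared in part with Dbp and Rpl18 on the other strand, 2 genes with more reads than Sphk2, and its level is therefore uncertain.

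Sgpp1 (chr12:75714249-75735729), the S1P phosphatase of most tissues, had 51.5, 58.7 and 92.5 CPM in CONT and 41.6, 38.5 and 30.5 CPM in CAC. The log2 fold change was -0.87 (SE 0.27; edgeR adjusted p = 0.289). It was -0.57 without CONT replicate 3, which had the highest value, and -0.75 without CAC replicate 3, where the unadjusted p was no longer under 0.05. Sgpp2 was close to absent, with at most 18 reads in a library.

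Sphingomyelin is made from ceramide by Sgms1 in the Golgi and by Sgms2 at the plasma membrane, and is cut back to ceramide by the sphingomyelinases. Neither synthase separated the groups with all 6 libraries. Sgms1 had 33.4, 70.3 and 70.1 CPM in CONT and 136, 61.7 and 113 CPM in CAC, with a log2 fold change of 0.84 (SE 0.40; edgeR adjusted p = 0.419). It was 1.11 without CAC replicate 2, where the unadjusted p was under 0.05 and the remaining libraries did not overlap, and 0.23 with voom and sample quality weights. Sgms2 spread widely among the CONT libraries, with 2.85, 25.4 and 45.6 CPM in CONT and 9.28, 9.44 and 16.4 CPM in CAC. Its log2 fold change of -1.07 (SE 0.85) became -0.26 without CONT replicate 3 and -1.59 without CONT replicate 1, where the unadjusted p was under 0.05 and the remaining libraries did not overlap.

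The neutral sphingomyelinases Smpd2 and Smpd3 were lower in CAC at an unadjusted p under 0.05, and the acid sphingomyelinase Smpd1 was not separated. These were 2 of the 5 genes of this role (40%, against 6.95% of all genes). Smpd1 had 75.6, 68.7 and 76.3 CPM in CONT and 76.3, 60.1 and 65.7 CPM in CAC. Smpd2 (chr10:41485642-41490369) had 38.1, 30.0 and 30.9 CPM in CONT and 25.7, 21.4 and 14.8 CPM in CAC, with a log2 fold change of -0.68 (SE 0.25; edgeR adjusted p = 0.339). Smpd3 (chr8:106252548-106337988) had 16.9, 18.1 and 24.1 CPM in CONT and 15.5, 10.9 and 9.29 CPM in CAC, with a log2 fold change of -0.73 (SE 0.29; edgeR adjusted p = 0.356). The unadjusted p of Smpd2 was under 0.05 in 1 of the 6 fits with a library left out (without CAC replicate 1), where the fold changes ran from -0.82 to -0.48. That of Smpd3 was under 0.05 in 2 (without CONT replicate 1 or CAC replicate 1), with fold changes from -0.92 to -0.54. Some of the fits without a call had a larger fold change than the fit on all libraries, such as -0.74 for Smpd2 and -0.78 for Smpd3 without CONT replicate 2. With the replicate number as a block, the unadjusted edgeR p of Smpd3 was 0.0869. With no filter on low counts it was 0.0563 for Smpd2 and 0.0691 for Smpd3. Smpd2 shares 20.3% of its exonic bases with Mical1 and Smpd3 4.72% with Prmt7, both on the other strand, so that some of these reads may belong to the neighbours.

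The remaining fates of ceramide showed no separation. Ugcg, which makes glucosylceramide, had 59.8, 47.9 and 35.3 CPM in CONT and 49.0, 55.2 and 75.9 CPM in CAC. Cerk, which makes ceramide-1-phosphate, had 42.7, 42.6 and 35.8 CPM in CONT and 49.6, 38.9 and 54.3 CPM in CAC. The log2 fold changes of Ugcg and Cerk were 0.33 (SE 0.27) and 0.24 (SE 0.19).

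**Figure D3:**
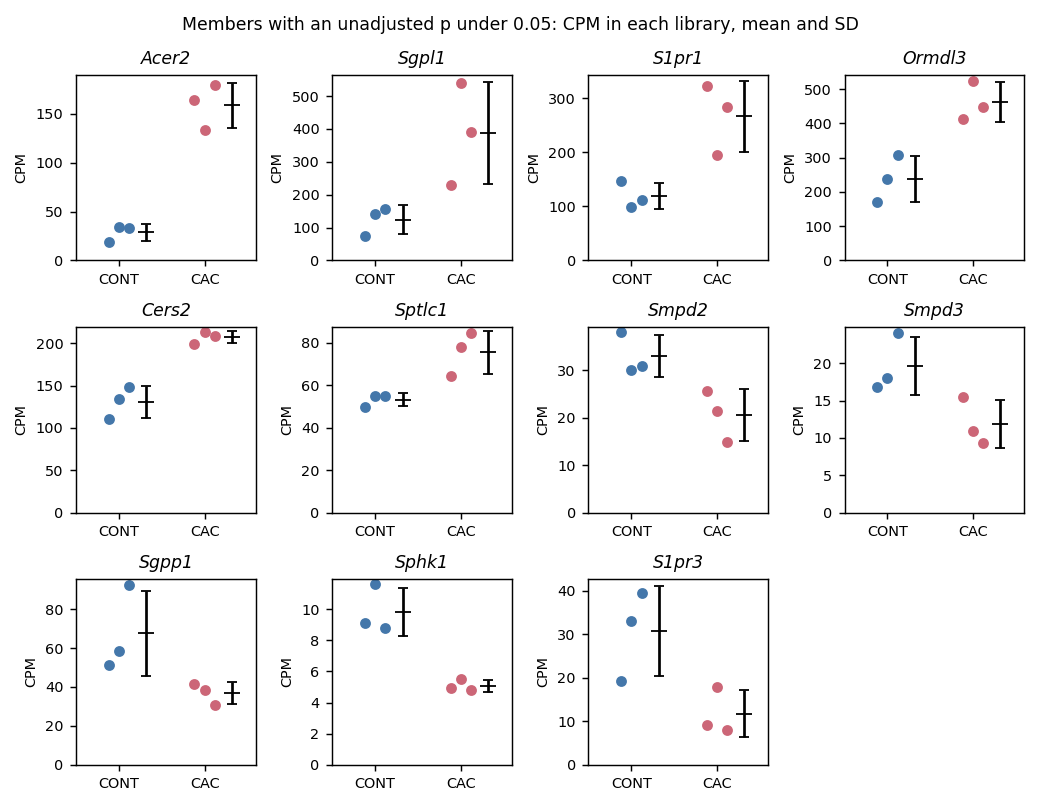
CPM (linear axes from 0) of the 11 members with an unadjusted p under 0.05 in each CONT and CAC library, with the mean and SD of each group beside the points. In each panel the 3 CAC libraries lie on one side of the 3 CONT libraries; the fold difference is largest in Acer2 (28.8 against 158.8 CPM on average), and the gap is narrow in Smpd3, where CAC replicate 1 has 15.5 CPM and CONT replicate 1 has 16.9 CPM.

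The S1P receptors differed in direction. S1pr1 (chr3:115710433-115715072), the receptor of endothelial cells and lymphocytes, had 147, 98.6 and 112 CPM in CONT and 322, 194 and 283 CPM in CAC. Its libraries did not overlap, and the log2 fold change was 1.16 (SE 0.28; 2.24-fold; edgeR adjusted p = 0.239). S1pr3 (chr13:51408639-51422797), a receptor of smooth muscle and stromal cells, had 19.3, 33.1 and 39.6 CPM in CONT and 9.24, 17.9 and 8.08 CPM in CAC. The log2 fold change was -1.39 (SE 0.41; edgeR adjusted p = 0.283), and the unadjusted p was no longer under 0.05 without CONT replicate 3 or CAC replicate 1, with fold changes of -1.15 and -1.18. S1pr2 had 5.53, 15.0 and 14.6 CPM in CONT and 8.13, 8.31 and 7.85 CPM in CAC, where CONT replicate 1 lay below the CAC libraries.

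Markers of cells that bear these receptors were read beside them. The 10 endothelial markers had a median log2 fold change of 0.003. At an unadjusted p under 0.05, 1 of the 10 was higher, against 6.31% of all genes. The sum of the 10 markers was 3590 CPM in CONT replicate 1, the library rich in mitochondrial counts. It was 1500 and 1640 CPM in the other CONT libraries, below the 2060 to 2610 CPM of the CAC libraries. As a percentage of that sum, S1pr1 was 4.09, 6.59 and 6.85 in CONT and 13.4, 9.42 and 10.8 in CAC (5.84 ± 1.52 against 11.2 ± 2.02, SD, n = 3 each). This ratio was chosen after the values were seen and is a description, and the part of endothelial cells in the level of S1pr1 was not tested. The 8 fibroblast markers had a median log2 fold change of -1.25, with 6 of 8 lower at an unadjusted p under 0.05 (against 6.95% of all genes), and summed to 2560 to 3060 CPM in CONT and 1420 to 2350 CPM in CAC. Of the 8 mural cell markers, 3 had a fold change below 0, 2 of them at an unadjusted p under 0.05 (against 6.95% of all genes). The sum of the mural cell markers was 926 to 1020 CPM in CONT and 705 to 1340 CPM in CAC. The 7 B cell markers all had a fold change below 0, 3 of them at an unadjusted p under 0.05 (against 6.95% of all genes). The B cell markers summed to 53.8 to 93.4 CPM in CONT and 9.02 to 20.4 CPM in CAC. The 8 markers of T and natural killer cells summed to 11 to 19.1 CPM in CONT and 7.78 to 9.81 CPM in CAC. None of these 8 had an unadjusted p under 0.05. The part of fibroblasts and mural cells in the lower level of S1pr3 was not tested.

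The make-up of each enzyme family was then examined, as the share of each isoform in the summed FPKM of its family, a measure that does not depend on library size. Among 25 shares tested, 12 had libraries that did not overlap, and each of these had an exact two-sided permutation p of 0.1, the smallest this design can give (0.208 after Benjamini-Hochberg adjustment over the 25). No share could therefore pass a threshold of 0.05. Shares of a family are also tied, since a larger share of 1 isoform lowers those of the others. The 12 are thus not separate observations. With CPM in place of FPKM, 12 shares also had no overlap, but Cers5 was no longer among them and Asah2 was. On that scale the difference in share (CAC minus CONT, percentage points) was 30.7 in place of 23.5 for Acer2, -9.15 in place of -4.08 for Cers4, -4.05 in place of -6.69 for Cers5, -5.15 in place of -1.26 for Acer3 and -1.81 in place of -0.848 for Ormdl1. In FPKM, 19 shares had no overlap without CONT replicate 1, where the smaller CONT group makes a lack of overlap more likely.

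The largest difference in shares was in the ceramidases. Acer2 made up 12.3%, 11.7% and 9.13% of the ceramidase FPKM in CONT and 34.7%, 31.5% and 37.2% in CAC. Asah1 remained the most abundant ceramidase per length of gene, but its share of FPKM was 68.3%, 68.3% and 69.8% in CONT and 48.3%, 50.6% and 51.4% in CAC. The sum over the family was 30.3 ± 12 FPKM in CONT and 52.3 ± 3.85 FPKM in CAC, while the level of Asah1 overlapped between the groups. The larger Acer2 share thus came with a larger total. In CPM, which is not corrected for gene length, Acer2 had 48.8% and Asah1 33.6% of the ceramidase sum in CAC.

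In the ceramide synthases, Cers2 made up 61.1%, 58.5% and 60.3% of the family in CONT and 68.3%, 72.3% and 71.3% in CAC. Cers5 had 23.0% ± 1.65 in CONT and 16.3% ± 2.97 in CAC, Cers4 had 9.87% ± 2.51 and 5.80% ± 1.04, and Cers6 had equal shares of 6.17% ± 1.10 and 6.16% ± 1.22 (SD, n = 3 each). The family total was 47.8 ± 7.12 FPKM in CONT and 65.2 ± 0.303 FPKM in CAC, without overlap. Ormdl3 already accounted for 93.5% ± 1.08 of the ORMDL total in CONT and for 96.1% ± 0.60 in CAC.

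Among the receptors, S1pr1 made up 90.5%, 77.7% and 77.5% of the S1P receptor FPKM in CONT and 97.2%, 92.7% and 97.1% in CAC. S1pr3 accounted for 8.15%, 17.8% and 18.7% in CONT and 1.91%, 5.83% and 1.89% in CAC. In the sphingomyelinases, Smpd1 made up 66.4% ± 0.53 in CONT and 74.8% ± 4.06 in CAC, and Smpd2 22.2% ± 2.36 and 16.9% ± 3.11 (SD, n = 3 each). The larger Smpd1 share came with a family total of 26.7 ± 1.87 FPKM in CONT and 22.1 ± 3.36 FPKM in CAC, and the level of Smpd1 itself averaged 17.7 and 16.5 FPKM, with overlap. The share of Sphk1 in the kinases averaged 21.2% ± 8.55 in CONT and 9.87% ± 2.86 in CAC, but CONT replicate 1 (11.9%) lay among the CAC libraries.

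**Figure D4:**
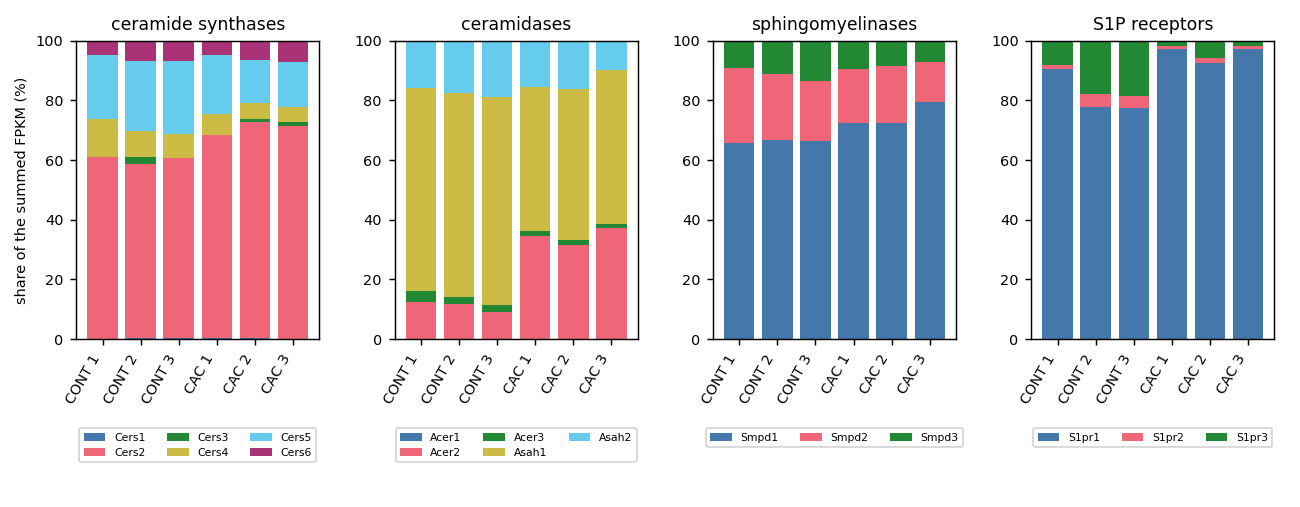
Share of each isoform (% of the summed FPKM of its family) in each library, for the ceramide synthases, ceramidases, sphingomyelinases and S1P receptors. The Acer2 segment is 9.13% to 12.3% in CONT and 31.5% to 37.2% in CAC, and Cers2 is 58.5% to 61.1% in CONT and 68.3% to 72.3% in CAC.

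A further list of 43 genes of sphingolipid transport, glycosphingolipid synthesis and breakdown, and ceramide signalling was read in the same fit. Of its 40 tested genes, 3 were higher in CAC at an unadjusted p under 0.05 and 2 were lower (12.5% in all, against 13.3% of all genes), none at an adjusted p under 0.05. Of the 40 fold changes, 19 were above 0 and 21 below, with a median of -0.04 on the log2 scale. Plpp1, a lipid phosphate phosphatase of the cell surface that can act on S1P, had a log2 fold change of 1.01 (SE 0.27; edgeR adjusted p = 0.266). Nsmaf, a factor that links the tumor necrosis factor receptor to neutral sphingomyelinase, had 0.56 (SE 0.15; edgeR adjusted p = 0.264). Adipor2, an adiponectin receptor associated with ceramidase activity, averaged 474.4 ± 237.7 CPM in CONT and 1156 ± 198.9 CPM in CAC (SD, n = 3 each). Its log2 fold change was 1.28 (SE 0.44; edgeR adjusted p = 0.313).

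The 2 lower genes of this list act on glycosphingolipids. B4galt6, a lactosylceramide synthase, had a log2 fold change of -1.19 (SE 0.28; edgeR adjusted p = 0.232), and Gltp, a glycolipid transfer protein, had -0.91 (SE 0.29; edgeR adjusted p = 0.291). With 1 library left out, the unadjusted p of Plpp1, Nsmaf and B4galt6 was under 0.05 in all 6 fits. That of Adipor2 was not without CONT replicate 2, CAC replicate 2 or CAC replicate 3, with log2 fold changes of 1.32, 1.34 and 1.15, and the lowest value was 0.96 without CONT replicate 1. That of Gltp was not without CONT replicate 1, CAC replicate 2 or CAC replicate 3, with -0.69, -0.87 and -0.71. DESeq2 gave an adjusted p under 0.05 for 4 of the 40 (10%, against 5.55% of all genes with one): Plpp1, Nsmaf, Adipor2 and B4galt6. With 1 library left out, this held for Nsmaf in 6 of 6 fits, for Plpp1 in 3, and for Adipor2 and B4galt6 in 2 each. Sptssb, the alternative small subunit of serine palmitoyltransferase, was among the 3 genes not tested and had 492 reads in CAC replicate 2 and at most 1 in the other libraries.

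The fold changes of the 11 members differed in how far they rested on single libraries. Acer2, Sgpl1, S1pr1, Ormdl3 and Cers2, the 5 largest positive ones, had an unadjusted edgeR p under 0.05 in all 6 fits with 1 library left out. The ranges were 1.04 to 1.36 for S1pr1, 0.78 to 1.19 for Ormdl3 and 0.57 to 0.78 for Cers2. Among the lower members, S1pr3 ran from -1.81 to -1.15, Sphk1 from -1.01 to -0.82, Sgpp1 from -1.03 to -0.57, Smpd3 from -0.92 to -0.54 and Smpd2 from -0.82 to -0.48. None of the 11 changed sign in any of these fits. Since their libraries did not overlap, leaving 1 out could hardly turn the direction, and this is no further support.

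**Figure D5:**
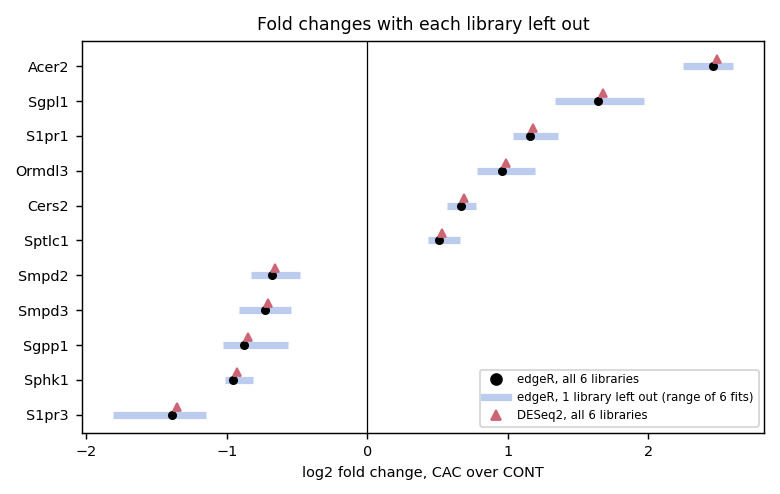
Log2 fold changes (CAC over CONT) of the 11 members with an unadjusted p under 0.05, in edgeR with all 6 libraries (black points), in edgeR with 1 library left out (range of 6 fits, bars) and in DESeq2 (triangles). No bar reaches 0, which follows from libraries that do not overlap, and Acer2 stays between 2.25 and 2.61.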

How the data were processed

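eWAT of 3 CAC and 3 CONT mice was sequenced, 1 library per mouse. Groups and replicate numbers were taken from the sample labels. The submitters' processing notes name HISAT2 2.0.5 and featureCounts 1.5.0-p3, and the study aligned reads to the mouse genome of Ensembl release 94. The deposited counts are raw whole numbers of reads. The authors also deposited FPKM, in which each count is scaled by the length of the gene and by the size of its library. Coordinates are those of GRCm38. Promoters are those of RefSeq on GRCm38.p6.

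The test was the robust quasi-likelihood test of edgeR 4.0.16 in R 4.3.3, with condition as the only term, TMM factors and edgeR's own expression filter. P-values were adjusted over 17296 genes (Benjamini-Hochberg). All p-values are two-sided. CPM values use the TMM-adjusted library size. Total counts were 15713794 to 25926425 per library, and the common dispersion between mice was 0.265. The floor of a count of 0 is 3 reads and covers counting error only. Libraries of the same group differed by far more than sampling noise (chi-square per degree of freedom 66.7 to 398), so that none was a repeat of another. Family shares were tested by exact permutation over the 20 splits of 6 libraries.

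Alternatives were DESeq2 1.42.0, limma 3.58.1 (voom with sample quality weights, and log2(FPKM + 1) or log2(FPKM + 0.1) restricted to genes that reach 0.5 FPKM in 3 or more libraries), relative log expression and upper-quartile normalization, mitochondrial genes removed, no filter, at least 10 counts in every library, no robust estimation, the replicate number as a block, and each library left out. The scripts were tested on simulated data. Values are given in every library for members with an unadjusted p under 0.05, with libraries that do not overlap, or among the 3 highest by mean FPKM within their role, and the others are given by range or mean. Degs2, Sgms2 and the reads of Cers3 were added in every library after their values were seen. Genes of the further list were named at an unadjusted p under 0.05, and Sptssb was added after its values were seen. The members and lists were chosen with earlier results of these data known.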

Additional observations from a re-analysis of the deposited data

How the results depend on the processing

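With 3 mice per group and a common dispersion of 0.265, edgeR called no gene at an adjusted p under 0.05, and the exact tests could not go below 0.1. Low members (Acer1, Sptlc3, Cers1, Cers3 and Sgpp2) are limited by depth, and Cers1 also by exons shared with other genes. All 19 fold changes recomputed kept their direction in all 435 alternative values. Most of these genes were picked for a difference in the same data, so this is a description only. The number of members at an adjusted p under 0.05 was 0 in edgeR and in limma on FPKM. It was 3 of 35 with voom and sample quality weights (Acer2, Sgpl1 and S1pr1), where 5.53% of all genes passed. With DESeq2 it was 6, where 5.55% of all genes passed. Over the fits with 1 library left out, by edgeR or DESeq2, it was 0 to 10, where 0% to 11.3% of all genes passed. In these fits the members at an unadjusted p under 0.05 numbered 7 to 15, against 7.24% to 15.6% of all genes. Those lower in CAC numbered 2 to 7, and the further genes at an unadjusted p under 0.05 numbered 3 to 9. Members without overlap numbered 12 to 17, and family shares without overlap 12 to 19. A smaller group makes a lack of overlap more likely, and its share over all genes was not counted in these fits. The members' median log2 fold change was -0.062 to 0.227. The members lower in CAC at an unadjusted p under 0.05 were 3 with no filter and 9 with voom, which also gave a median of -0.086 and 9 further genes. Of all genes, 7.62% were under that p with no filter and 28.4% with voom, against 13.3% as reported. The causes of these changes were not tested. The median of all genes moved by over 0.1 only in DESeq2 without CONT replicate 2 (to 0.15) and without CAC replicate 3 (to -0.25).

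Libraries with the same replicate number deviated together with correlations of 0.27, -0.23 and -0.26. Those with different numbers had correlations of -0.42 to 0.49. The values gave no sign of a pairing by number, but so few libraries cannot exclude it. With the replicate number as a block, 10 of 35 members had an unadjusted p under 0.05 (against 11.5% of all genes), 6 higher in CAC and 4 lower. In that fit 0 members had an adjusted p under 0.05, and the members' median log2 fold change was 0.11.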
